A study of Mytilus galloprovincialis with 16 samples.

Results

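The transcripts described here are 57 cDNA clones, of 1920 on the array, whose relative mRNA abundance in mussel (Mytilus galloprovincialis) digestive gland was higher in males than in females at stage 3 of gonad development without being so at stage 1. They were chosen from the deposited value table, which holds a log2 ratio of female over male for each spot. The sign was turned and the ratio averaged over the 2 spots and 4 arrays of a stage, and a clone was taken when this mean reached 0.7 at stage 3 and stayed below 0.7 at stage 1. On the same scale 34 clones reached 0.7 at both stages and 46 at stage 1 only.

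The study compared the sexes directly on 16 two-colour arrays, each of which carried RNA from the digestive gland of 1 male and 1 female mussel of the same stage, with 4 arrays per stage. The mussels were single wild animals from the Bizerta Lagoon in Tunisia, with no treatment named, and their age was not given in the sources used here. Stage 1 (early) was sampled in November, stage 2 (development) in January, stage 3 (ripe) in February and stage 4 (spawning) in March, so that stage and month cannot be told apart. The labels place the January animals in 2007 and the methods a year later. Males carried the dye Cy5 on 8 arrays and Cy3 on the other 8, with 2 arrays of each orientation in every stage. Replicates 2 and 4 of stage 4 appear to be a single slide, since they differ by less than sampling noise, as judged from duplicate spots. They count as 1 sample here, so that n = 3 at stage 4 and n = 4 at the other stages. The methods call the 4 arrays of a stage biological replicates but the labels do not number the animals, so p-values measure the spread between these arrays.

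The digestive gland is the organ in which a bivalve takes up and digests its food, and it stores reserves and handles metals and other toxicants. Mussels spawn after a season of gamete growth, during which the gonad follicles fill the mantle and draw on stored reserves. In a gland piece, a change in the amount of a transcript per cell and a change in the share of the cells that make it cannot be told apart. The files do not pair the clones with genes and 0 of 1920 clones matched the reference gene table, so clones are given by their array identifiers, with no gene role or sequence, and the tissue could not be checked against marker genes.

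The values that chose the clones are given first, as a description. In the value table the stage 3 mean of the 57 clones ran from 0.703 in Myt01-009A05 and 0.730 in Myt01-015E02 to 2.48 in Myt01-016F03 and 3.31 in Myt01-016G08. Just below the threshold lay Myt01-003E09 at 0.698 and Myt01-007G05 at 0.693. The stage 1 threshold was not approached from within, since the highest stage 1 mean among the 57 clones was 0.252 in Myt01-012C08. Among the clones that also reached 0.7 at stage 3, the nearest beyond it were Myt01-015G03 and Myt01-017E06, at 1.02 and 1.06. The plot of stage 1 against stage 3 ratios shows the chosen clones as a band that began at the edge of the main cloud of clones and extended to clones that were clearly lower in males at stage 1.

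**Figure D1:**
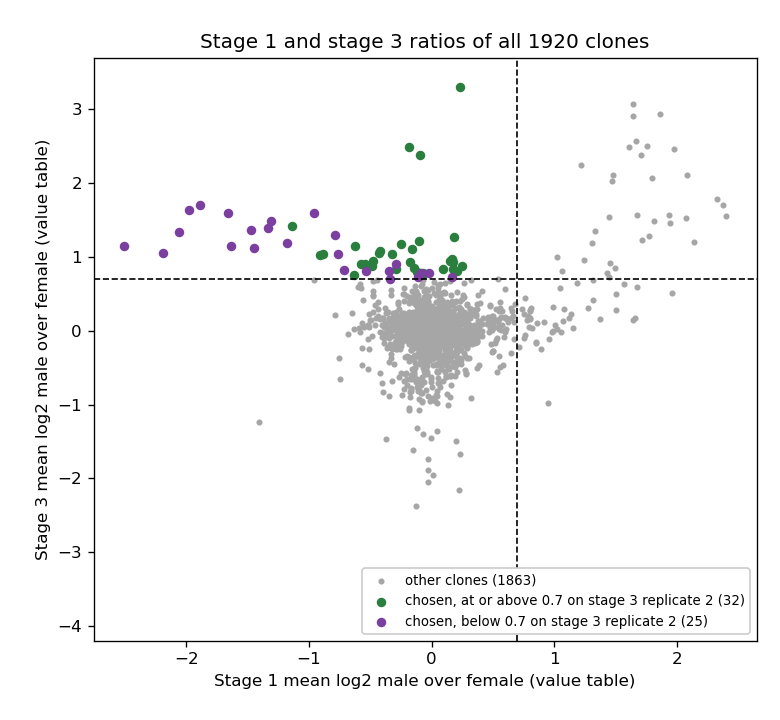
Mean log2 male over female in the value table at stage 1 (horizontal) and stage 3 (vertical) for each of the 1920 clones, with dashed lines at the threshold of 0.7. The 57 chosen clones are coloured by their ratio on stage 3 replicate 2 (32 at or above 0.7, 25 below), and none of them exceeded 0.252 at stage 1.

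All ratios from here on are log2 male over female recomputed from the scanner intensities after loess normalisation, unless the value table is named. At stage 3, the median ratio of the 57 clones was 1.65 on replicate 1, 0.75 on replicate 2, 2.01 on replicate 3 and -0.26 on replicate 4. The male excess was thus carried by replicates 1 and 3, on which each of the 57 clones lay above 0, whereas 40 clones did so on replicate 2 and 12 on replicate 4. Across all 1920 clones, 48.2%, 48.2%, 50.9% and 52.7% lay above 0 on these 4 arrays. No chosen clone was male-high on fewer than 2 of the stage 3 arrays. There were 13 clones above 0 on 2 arrays, 36 on 3 and 8 on all 4, and 10.8% of all clones were above 0 on all 4. Replicate 4 held the lowest ratio of the stage for 45 clones and replicate 2 for 12, while the highest was on replicate 3 for 40, on replicate 1 for 15 and on replicate 2 for 2.

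Both stage 3 arrays with the highest ratios had the males in Cy5. With the males in Cy5 (replicates 1 and 3) the mean ratio of the 57 clones had a median of 1.74, and 57 of 57 reached 0.7. With the males in Cy3 (replicates 2 and 4) the median was 0.20, 38 clones were above 0 and 6 reached 0.7. Over all clones the median was 0.0006 and 0.0070 in these orientations, and 8.07% and 2.19% reached 0.7. At stage 4 the orientations stood the other way round, with a median of -0.11 for males in Cy5 and 1.04 for males in Cy3, the latter from what appears to be 1 slide. This holds for the median of all 57 clones, since the 2 sets of clones described below ran opposite ways at stage 4. The part of the dye and of the animals on each array in these differences was not tested, and with 2 arrays of each orientation they cannot be told apart within a stage.

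The spread between stage 3 arrays was wide for these clones. Their median SD was 1.08 (range 0.32 to 2.57, n = 4), against 0.20 over all clones. At stages 1, 2 and 4 the median SD was 0.45, 0.48 and 0.82 against 0.25, 0.23 and 0.19. The chosen clones were brighter than the clones of the whole array (median mean signal 8.84 against 6.69), so these SDs are not those of like clones. Stages 1 and 3 were also part of the rule. The spots of a clone agreed far better than the arrays did. The median difference between both spots of a chosen clone ranged from 0.063 to 0.124 over the 16 arrays, and was 0.088 on stage 3 replicate 4. Over all clones, however, spots of a clone correlated least on that array among the 16 (r = 0.436), and 29.0% of its clone spots were above background. The array correlated with the other stage 3 arrays at r = -0.018 to 0.119, while those correlated with each other at 0.651 to 0.912. The part of this array's quality in the low ratios was not tested. With that spread, 0 of the 57 clones passed limma's test at stage 3 (Benjamini-Hochberg adjusted p under 0.05), where 0.99% of all clones were called higher in males. The rule used this contrast, and nothing is read from the count.

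**Figure D2:**
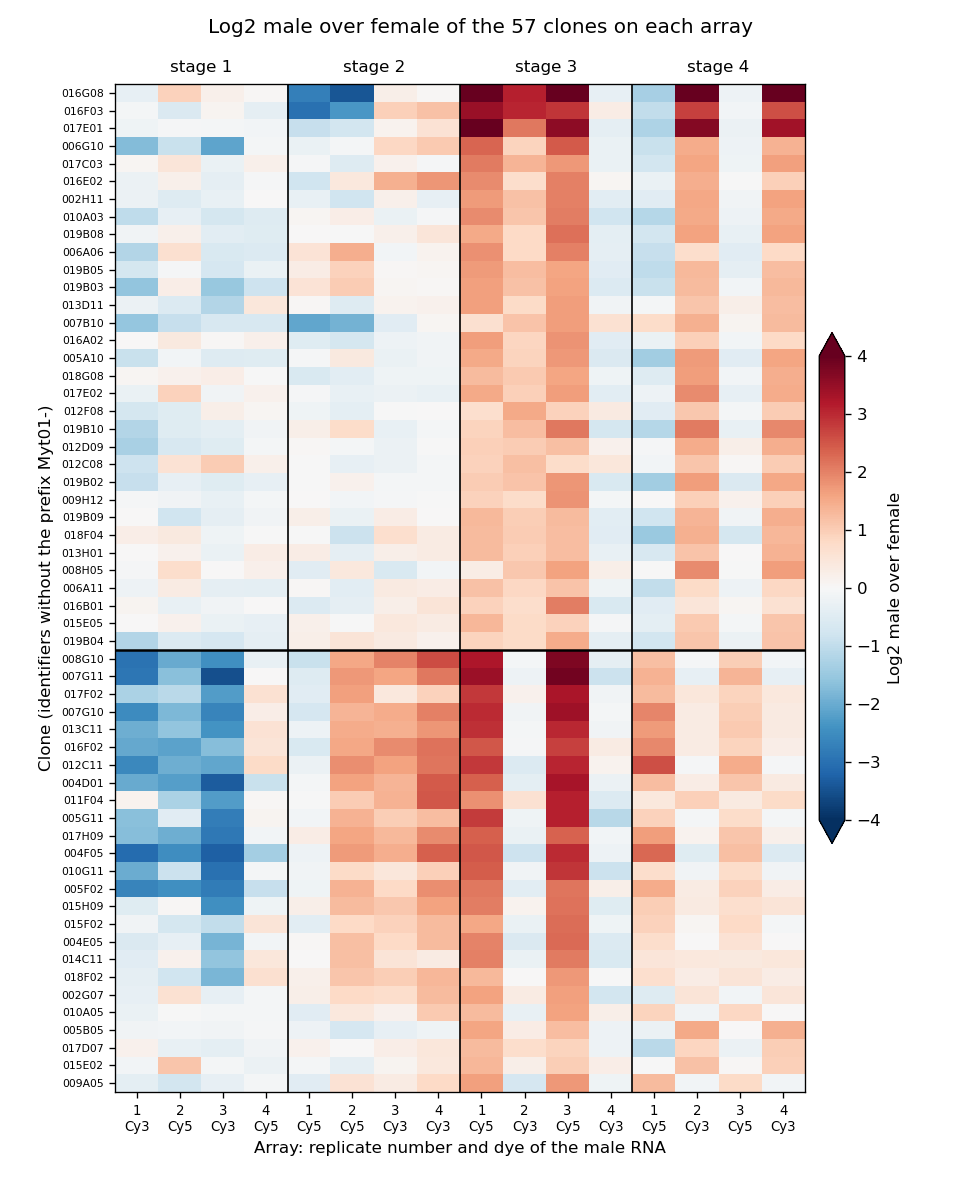
Log2 male over female of the 57 clones (one line each, identifiers without the shared prefix) on the 16 arrays, grouped by stage, with the replicate number and the male dye under each column. The horizontal line parts the 32 clones at or above 0.7 on stage 3 replicate 2 from the 25 below it; within each set clones are ordered by the stage 3 mean of the value table, and the colour scale ends at 4 in either direction.

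The heat map of the ratios by array shows 2 main profiles among the 57 clones, which were divided at 0.7 on stage 3 replicate 2. The cut falls within a continuous range, since ratios on that array ran from -0.84 to 0.697 below it and from 0.706 to 3.10 above it. This division was made after the values were seen and is descriptive. The first set, 32 clones at or above 0.7 on that array, was male-high on 3 of the 4 stage 3 arrays, with medians of 1.41, 1.01 and 1.70 on replicates 1 to 3 and -0.34 on replicate 4. The second set, 25 clones, was male-high on replicates 1 and 3, with medians of 2.12 and 2.35. Its medians were near 0 on replicates 2 and 4, at -0.14 and -0.19, with 8 and 5 of the 25 clones above 0.

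The sets are next given side by side at the stages that took no part in the rule. At stage 4, all 32 clones of the first set were above 0 on replicates 2 and 4, with medians of 1.43 and 1.39, but only 2 were so on replicate 1 and 7 on replicate 3, where the medians were -0.73 and -0.14. The second set ran the other way at stage 4, with medians of 1.00 and 0.78 on replicates 1 and 3 and of 0.30 and 0.28 on replicates 2 and 4. At stage 2 the first set lay close to 0, with array medians of -0.03, -0.29, 0.11 and 0.04. The second set had medians of -0.17 on replicate 1 and of 1.27, 0.98 and 1.32 on replicates 2 to 4, with 23, 24 and 24 of its 25 clones above 0.

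At stage 1, which the rule used, the clones of the second set were female-high on 3 arrays, with medians of -1.28, -0.86 and -2.22 on replicates 1 to 3, and near 0 on replicate 4 (-0.06). On replicate 3, all 25 were below 0. Of the 57 clones, 21 were below 0 on all 4 stage 1 arrays, as 9.9% of all clones were, and 19 had a stage 1 mean of -0.7 or lower, as 1.3% of all clones had. The first set had stage 1 medians of -0.24, -0.04, -0.33 and -0.08. Members of a set resembled each other closely, with a median Pearson correlation over the 16 arrays of 0.800 between clones of the first set (496 pairs) and 0.865 between clones of the second (300 pairs), against 0.414 for pairs across the sets (800 pairs). These clones share the same 16 arrays and were divided on 1 of them, so the correlations are a description.

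Clone Myt01-016G08, the highest of all at stage 3, showed the first profile at its widest. Its ratio at stage 3 was 5.19, 3.10, 5.03 and -0.33 on replicates 1 to 4 (mean 3.25 ± 2.57, SD, n = 4). At stage 1 it was -0.33, 0.93, 0.20 and 0.06. The stage 3 values of replicates 1 to 3 thus lay above every stage 1 value, while that of replicate 4 lay at the low end of them. At stage 2 its ratio was -2.74, -3.41, 0.23 and 0.04, so that females were higher on both arrays with males in Cy5 and the sexes were level on both with males in Cy3. The mean was -1.47 ± 1.88 (SD, n = 4, limma adjusted p = 0.499). At stage 4 it was -1.33, 4.75, -0.19 and 4.45, high on the arrays that appear to be 1 slide and below 0 on the other 2 (mean 1.03 ± 3.15, SD, n = 3, limma adjusted p = 1.00).

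The next clone, Myt01-016F03, was 3.46, 3.04, 2.86 and 0.30 at stage 3 (mean 2.41 ± 1.43, SD, n = 4) and the only one of this pair above 0 on all 4 arrays. It was -2.97, -2.31, 0.95 and 1.18 at stage 2, again split by the dye orientation, and -0.98, 2.73, -0.10 and 2.59 at stage 4. Clones Myt01-012C08 and Myt01-012D09 had the smallest SD at stage 3. The former was 0.92, 1.20, 0.72 and 0.44 (mean 0.82 ± 0.32, SD, n = 4), and the latter 0.96, 1.02, 1.19 and 0.17 (mean 0.84 ± 0.46, SD, n = 4). Both were above 0 on every stage 3 array.

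The second profile was widest in Myt01-007G11. Its stage 3 ratios were 3.42, -0.21, 3.87 and -0.85 (mean 1.56 ± 2.43, SD, n = 4), so that 2 arrays showed a large male excess and 2 a small female one. At stage 1 it was -2.90, -1.68, -3.53 and 0.01, and at stage 2 -0.50, 1.73, 1.57 and 2.12. Clone Myt01-004F05 had the largest gap between stage 3 and stage 1. It was 2.48, -0.84, 3.00 and -0.19 at stage 3 and -3.08, -2.49, -3.26 and -1.34 at stage 1, with no stage 1 array above any stage 3 array. Its stage 1 mean of -2.54 ± 0.86 (SD, n = 4) made it one of 2 chosen clones called lower in males there, where 0.469% of all clones were so called. None was called higher, against 4.48% of all clones. Stage 1 was part of the rule and nothing is read from this. Clone Myt01-012C11 was 2.83, -0.55, 3.05 and 0.15 at stage 3 and 2.57, -0.05, 1.48 and -0.06 at stage 4, male-high on the arrays with males in Cy5 at both stages.

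**Figure D3:**
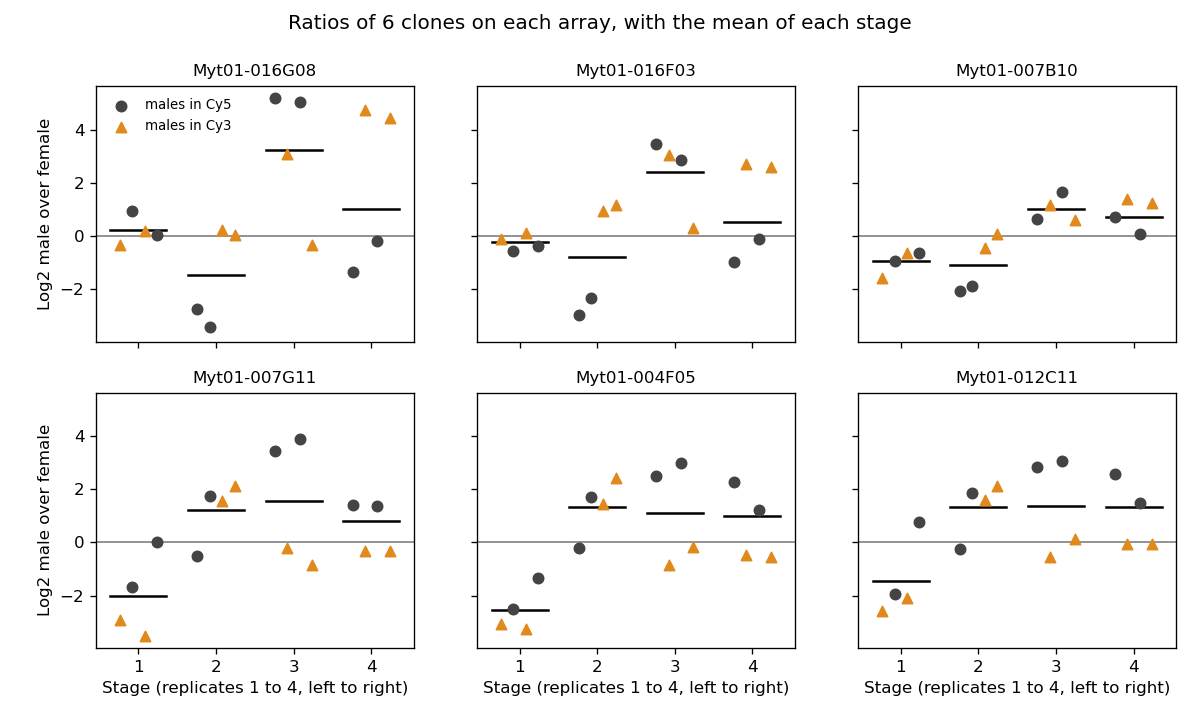
Log2 male over female of 6 clones on every array (points, by the dye of the male RNA) with the mean of each stage (bars; stage 4 replicates 2 and 4 enter its mean as 1). The upper clones belong to the first set and the lower ones to the second; Myt01-016G08 ranged from -0.33 to 5.19 at stage 3 and Myt01-007G11 from -0.85 to 3.87.

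Other named clones followed one or the other profile. At stage 3, Myt01-009A05 was 1.64, -0.68, 1.75 and -0.17, Myt01-007G10 was 2.99, -0.14, 3.38 and -0.07, and Myt01-004D01 was 2.40, -0.39, 3.30 and -0.24, each with the second profile. In the first set, Myt01-007B10 was below 0 on all 4 arrays of stage 1 (-1.56, -0.92, -0.64 and -0.64) and above 0 on all 4 of stage 3 (0.64, 1.16, 1.66 and 0.61). Of these stage 3 ratios, the first had neither sex above background, and the second and the last had no female signal above it. Clone Myt01-012D09, measured in both sexes on every array, had the same signs (-1.30, -0.63, -0.49 and -0.08 at stage 1). Clone Myt01-006A06, with 1.83, 0.78, 2.02 and -0.37 at stage 3, was lower in males at stage 4 on replicates 1 and 3 (-0.93 and -0.44) and had ratios of 0.71 and 0.79 on replicates 2 and 4, where neither sex was above background.

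Whether the sexes differed at stage 2 was tested, since that stage took no part in the choice. No chosen clone passed limma's test (0 of 57 at an adjusted p under 0.05, lowest adjusted p = 0.121), where 1.67% of all 1920 clones were called. At an unadjusted p under 0.05, 8 clones were higher in males and 1 was lower, against 9.69% and 8.49% of all clones. The median stage 2 ratio of the 57 clones was 0.23, with 38 above 0 where 60.3% of all clones were so, and 17 reached 0.7 (4.06% of all clones) while 3 were at -0.7 or lower (2.66% of all clones). The median was -0.02 with median centring in place of loess, so that its direction is not settled. Over all clones the stage 2 means ran against those of stage 1 (r = -0.589), and the labels' dyes give the direction used here; with the stage 2 signs turned the median is -0.23. The largest ratios were those of Myt01-004F05 (1.34 ± 1.11, SD, n = 4, limma adjusted p = 0.278) and Myt01-004D01 (1.34 ± 1.05, SD, n = 4, limma adjusted p = 0.239), and the most negative beside Myt01-016G08 was that of Myt01-007B10 (-1.08 ± 1.05, SD, n = 4, limma adjusted p = 0.121). With the spots kept apart, 9 chosen clones were called, 8 higher and 1 lower (15.8% of the 57, against 8.75% of all clones in that fit).

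Stage 4 was the other stage that took no part in the choice. Here too 0 of 57 clones were called, and 0% of all clones were, with limma adjusted p-values close to 1; at an unadjusted p under 0.05 the count was 0 of 57 against 4.11% of all clones, and 0 were called under each of 33 alternatives. The direction of the means nonetheless leaned to males. The mean ratio was above 0 for 49 clones where 41.4% of all clones were, and it reached 0.7 for 14 where 2.19% did. The median was 0.42, with array medians of -0.22, 1.03, 0.03 and 0.95. It was -0.11 without the slide of replicates 2 and 4, so that the sign of the median rests on that slide. On replicates 1 and 3 alone, the mean ratio was above 0 for 26 clones and reached 0.7 for 17 (2.60% of all clones). The second set had medians of 1.00 and 0.78 on these arrays, and the first set -0.73 and -0.14. Clone Myt01-012C11 was highest (1.33 ± 1.32, SD, n = 3, limma adjusted p = 1.00), followed by Myt01-007G10 (1.09 ± 0.82, SD, n = 3, limma adjusted p = 1.00). The lowest were Myt01-018F04 (-0.27 ± 1.48, SD, n = 3) and Myt01-006A06 (-0.21 ± 0.87, SD, n = 3). The difference between stages 4 and 2 passed the test for 0 of 57 clones (0.99% of all clones, lowest limma adjusted p = 0.104, for Myt01-007B10), and 1 clone had an unadjusted p under 0.05, against 12.8% of all clones.

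Among all clones the stage 4 and stage 3 means ran together (r = 0.755, 1920 clones). Array by array, stage 4 replicates 2 and 4, the apparent single slide, correlated with stage 3 replicates 1 to 3 at r = 0.739 to 0.886, whereas stage 4 replicates 1 and 3 did so at -0.216 to 0.201. For the 57 clones the same correlation was 0.487, and that between stages 1 and 2 was -0.723. Clones are not independent replicates, and each of these pairs holds a stage that the rule used. Between stages 2 and 4, which it did not use, r was 0.384 for the 57 clones and -0.356 for all.

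The signal of each sex is given next as a description, since the rule used the ratio of these signals at stages 1 and 3. Signals are log2 intensities after loess and quantile normalisation of the mean of both channels. The median male signal of the 57 clones was 7.92 ± 0.23, 8.64 ± 0.22, 9.35 ± 0.20 and 9.43 ± 0.13 at stages 1 to 4 (SD over arrays, n = 4, 4, 4 and 3). By array it was 7.65, 7.94, 7.87 and 8.22 at stage 1 and 9.38, 9.34, 9.59 and 9.11 at stage 3, without overlap between these stages. The median female signal was 8.68 ± 0.35, 8.39 ± 0.18, 8.42 ± 0.87 and 9.05 ± 0.79 in the same order. By array it was 7.61, 8.65, 7.88 and 9.55 at stage 3 and 9.57, 8.24, 9.44 and 8.17 at stage 4.

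In these medians over the 57 clones, the arrays of stages 3 and 4 differed more in the female signal than in the male one. The median male signal stayed within 9.11 and 9.59 on the 8 arrays of these stages, whereas the female one was low on the arrays with a male excess and close to the male level on the others. Clone by clone, the SD of the female signal exceeded that of the male signal for 40 of 57 clones at stage 3, where 48.2% of all clones showed this, and for 27 of 57 at stage 4, where 61.6% did. In the second set the male signal varied too, with stage 3 medians of 10.19, 9.39, 10.81 and 9.64 on replicates 1 to 4. Females on replicates 1 and 3 of both stages were labelled with Cy3 and on replicates 2 and 4 with Cy5.

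Male signals of the single clones were higher at stage 3 than at stage 1 for 57 of 57 (49.9% of all clones), and for 25 the 4 stage 3 values all lay above the 4 stage 1 values (6.72% of all). Female signals were lower at stage 3 than at stage 1 for 42 clones (51.1% of all), without overlap for 4 (5.78% of all). Both counts use stages of the rule and are descriptive. Male signals at stage 4 were higher than at stage 1 for 54 clones (47.5% of all). Female signals at stage 4 were higher than at stage 3 for 51 (50.1% of all). Each of these counts also holds a stage that the rule used, so they too are descriptive.

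**Figure D4:**
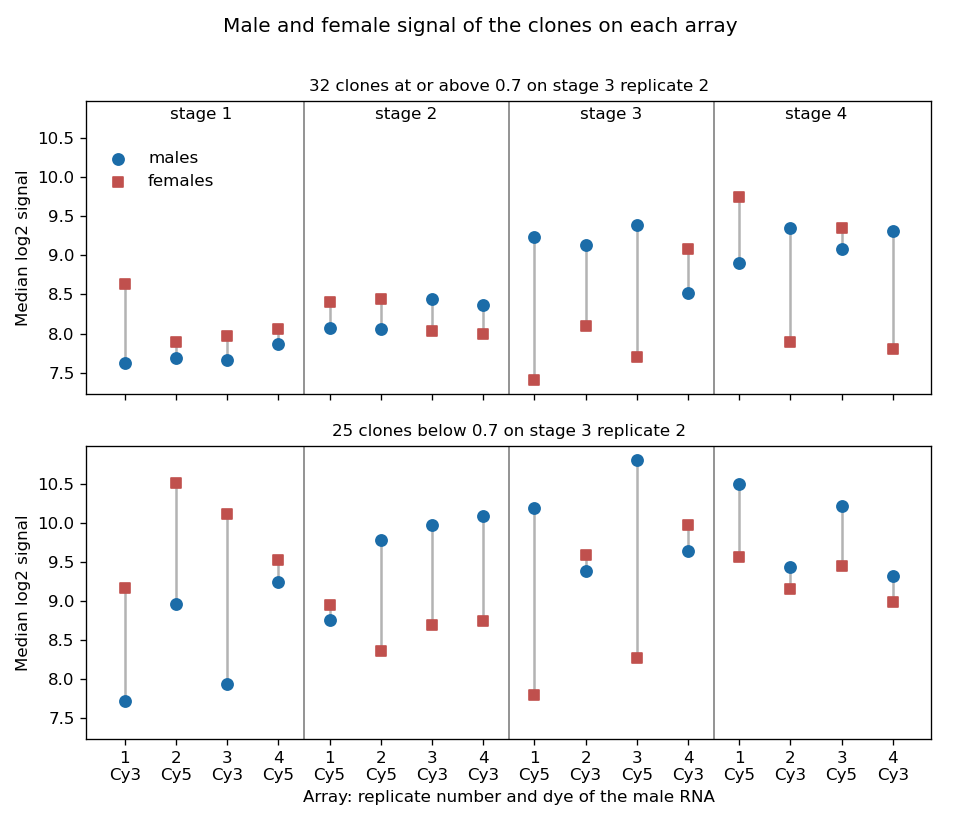
Median log2 signal of males (circles) and females (squares) on each array for the 32 clones at or above 0.7 on stage 3 replicate 2 (top) and the 25 below it (bottom), with the replicate number and the male dye on the horizontal axis. On stage 3 replicates 1 and 3 the female median of the second set was 7.80 and 8.28 while the male one was 10.19 and 10.81.

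In Myt01-016G08, males stood at 7.82 ± 0.37, 7.39 ± 0.54, 11.64 ± 1.32 and 10.33 ± 1.36 at stages 1 to 4 and females at 7.60 ± 0.52, 8.87 ± 1.34, 8.39 ± 1.39 and 9.31 ± 1.79 (SD, n = 4, 4, 4 and 3). Since stages 1 and 3 chose this clone, these values are a description. In Myt01-004F05, males stood at 10.04 ± 1.08, 11.52 ± 0.91, 11.99 ± 0.89 and 12.35 ± 0.65, and females at 12.58 ± 0.91, 10.19 ± 0.54, 10.88 ± 1.32 and 11.36 ± 0.91. Here the female signal was highest at stage 1 and the male signal lowest. Myt01-012C11 gave bright signals in both sexes, with males at 13.88 ± 0.90 and females at 12.51 ± 0.95 at stage 3.

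Most of the clones could be measured in both sexes. At stage 1, males were above background on all 4 arrays for 32 clones and on none for 4, and females on all 4 for 35 and on none for 6. At stage 3, males were above background on at least 1 array for each of the 57 clones and on all 4 for 49, and females on all 4 for 39 and on none for 2. Clone Myt01-009H12, among the dimmest, was above background at stage 3 in females on no array and in males on 2 of 4. Its ratios there were 0.94, 0.73, 1.80 and -0.09. Against the background limit in females its male excess came to 1.48-fold. This is not a lower bound, since arrays with males below background enter it. The clone was not well above background in either sex at stage 1. Females were also not above background for Myt01-008H05 at stages 1 and 4, where males were so on 1 and 2 of the 4 arrays. Its male excess came to 1.06-fold and 1.26-fold there, with the same limit (limma adjusted p = 1.00 at stage 4).

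The mean signal of both sexes was tested for a difference between the 4 stages. It is not the ratio used in the choice, but it holds the male signal of the same stage 1 and stage 3 arrays, so the test is not free of the choice. It differed for 19 of the 57 clones (33.3%) in limma's moderated F test at an adjusted p under 0.05, against 13.9% of all clones, and 15 of the 19 belonged to the first set. The chosen clones were brighter than the rest (median mean signal 8.84, against 6.69 over all clones, many of which were not above background), so these shares are not those of like clones. Without the clones above background on fewer than 8 arrays, the counts were 22 of 56 chosen clones (39.3%) and 227 of 858 in all (26.5%). Among these 19, the mean signal was highest at stage 4 for 12, at stage 3 for 5 and at stage 2 for 2, and lowest at stage 1 for 9, at stage 2 for 9 and at stage 3 for 1. The median over all 57 clones was 8.25, 8.68, 8.82 and 9.41 at stages 1 to 4. The count fell to 9 without stage 4 replicate 1, to 11 without stage 4 replicate 3 or stage 2 replicate 3 and to 12 without stage 2 replicate 1, and it was 38 with array weights or with the spots kept apart.

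For Myt01-016G08, the mean signal was 7.76, 7.57, 7.32 and 8.19 on the arrays of stage 1 and 8.41, 8.54, 7.83 and 7.74 on those of stage 2. It was 9.87, 10.66, 9.71 and 9.83 on those of stage 3 and 9.94, 9.56 and 9.96 on those of stage 4. No value of stages 3 and 4 fell within those of stages 1 and 2 (limma adjusted p = 4.63e-05, and 5.88e-10 to 0.000350 under the alternatives). In Myt01-016F03 it was 8.50 ± 0.31, 8.48 ± 0.06, 9.81 ± 0.76 and 10.01 ± 0.45 at stages 1 to 4 (SD, n = 4, 4, 4 and 3, limma adjusted p = 0.00504). Both clones are named for the highest stage 3 ratios. Their male signal at stage 3 enters this mean, so these p-values and the lack of overlap are not free of the choice. Such lack of overlap was not counted over all clones. In Myt01-009A05 the step came earlier, with 6.89, 8.39, 7.20 and 8.10 at stage 1 and 8.73, 8.66, 9.09 and 9.50 at stage 2. It was 9.38 ± 0.11 and 9.48 ± 0.52 at stages 3 and 4 (SD, n = 4 and 3, limma adjusted p = 0.00403).

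Clone Myt01-007B10 was the one called clone whose mean signal was lowest at stage 3, at 7.11 ± 0.46 against 7.79 ± 0.51, 8.19 ± 0.04 and 7.44 ± 0.04 at stages 1, 2 and 4 (limma adjusted p = 0.0323, lost in 8 of 29 alternatives). Clone Myt01-007G11 was highest at stage 4, at 10.23 ± 0.14 against 9.84 ± 0.45, 9.11 ± 0.49 and 9.39 ± 0.31 (limma adjusted p = 0.0460, lost in 16 of 29 alternatives). The dim clone Myt01-009H12 was also called (limma adjusted p = 0.0241, lost in 7 of 28 alternatives). It was above background in neither sex at stage 1 and on 1 array in females at stage 2, so that no size is given for its change.

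**Figure D5:**
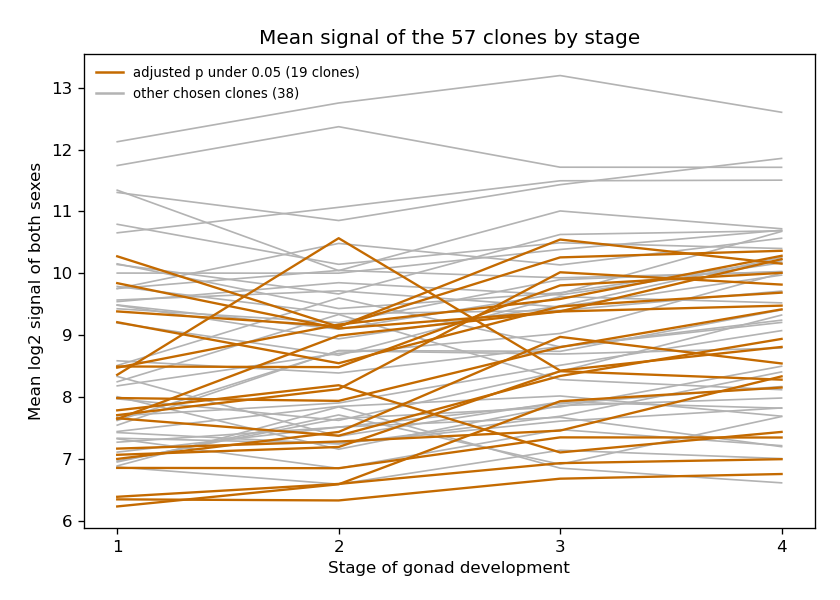
Mean log2 signal of both sexes of each of the 57 clones at stages 1 to 4 (each line a clone, means over n = 4, 4, 4 and 3). The 19 clones at a limma adjusted p under 0.05 are in orange, and 12 of them reached their highest mean at stage 4.

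The chosen clones came from 17 of the 20 plates of the clone library and from each of the 16 blocks of the array. They fell in 43 of the 160 rows of plate wells, at most 2 to a row except for row B of plate 019, of whose 12 clones 7 were chosen. These 7 clones had much the same profile over the 16 arrays (median Pearson correlation 0.904, range 0.750 to 0.977, 21 pairs). Their mean ratios at stage 3 ran from 0.69 to 1.03, and all 12 clones of that row had a median of 0.74 there and of -0.32, 0.21 and 0.01 at stages 1, 2 and 4. Whether clones of this row share a transcript was not tested, since no sequence is paired with them here.

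Stages 2 and 4, whose values the rule did not use, are given side by side with the 2 groups of clones that were male-high at stage 1. At stage 2 the median ratio was 0.23 for the 57 clones, -0.98 for the 34 clones male-high at stages 1 and 3 and -0.50 for the 46 male-high at stage 1 only, with 38 of 57, 0 of 34 and 2 of 46 above 0. At stage 4 the medians were 0.42, 1.14 and 0.14, with 49 of 57, 33 of 34 and 33 of 46 above 0. Of all clones, 60.3% were above 0 at stage 2 and 41.4% at stage 4. Over all clones the means of stages 1 and 2 correlated at r = -0.589 and those of stages 3 and 4 at 0.755. The values at stages 2 and 4 are thus not independent of the choice. These differences between lists were not tested, because each list was chosen on arrays that the lists share.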

How the data were processed

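Slides were scanned by the authors, whose deposited scanner files give linear, not normalised foreground and background intensity for each spot. Their deposited value table gives a log2 ratio of female over male for each spot, made with limma (version not given in the sources used here) after background subtraction with an offset and loess, as the methods describe. Over clone spots it correlated with the ratios recomputed here at r = 0.930 to 1.00, with column medians between -0.0207 and 0.0110. The rule on stages 1 and 3 was applied to that table. All other ratios were recomputed with limma 3.58.1 in R 4.3.3 from the intensities (normexp, offset 50, loess with blank and alignment spots at weight 0), signed as male over female from the labelled dyes, and averaged over both spots of a clone. On stage 4 replicate 1 they differed from the table by up to 1.51 for the chosen clones (median 0.279), and on the other arrays by at most 0.193.

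Stage 4 replicates 2 and 4 shared the deviations of single spots (r = 0.592, against -0.0719 to 0.0596 for the other 119 pairs of arrays), and their difference had 0.503 times the variance that duplicate spots predict, against 1.67 to 12.7 for other pairs. They were averaged, which left 15 replicates and 11 residual degrees of freedom. Stages 2 and 4, their difference and the mean signal (moderated F test) were tested with lmFit and eBayes over all clones, two-sided, with Benjamini-Hochberg adjustment at 0.05. Simulated data with known changes were used to test the fit. A spot counted as above background at 2 background SDs, which 28.8% to 56.7% of clone spots passed by array, and the spots of a clone correlated at r = 0.436 to 0.930. Where 1 sex was below background on every array of a stage, a fold was taken against a background limit. On each array this limit was the lowest signal above background or, where higher, the signal of the clone itself. The other sex entered with all arrays, and where some of these were below background the fold is not a lower bound. The number of arrays limits the precision.

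The clones and lists were chosen with earlier results of these data known. Clones are named where they stood at either end (2 at most) of the stage 3 ratio, the gap between stages 3 and 1, the stage 2 and stage 4 ratios, the stage 3 signal or SD, or nearest a threshold. The alternatives changed the background correction, the normalisation within or between arrays, the filter, the source of the values, the replicates, the weights, the dye term, the rule's threshold and the test. A block for slide or scan date was not run, as the file headers used here give none.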

Additional observations from a re-analysis of the deposited data

Results flagged for a closer look

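In 3 of the 51 clone and stage groups of 4 arrays examined, one array lay far from the others; chance alone gives about 1 in 20 such groups. Clone Myt01-016F02 had a log2 male over female of 0.53 on stage 1 replicate 4, while the rest of that stage lay between -2.13 and -1.71. Clone Myt01-018F04 was at -0.44 on stage 3 replicate 4, against 1.01 to 1.25. Clone Myt01-015E02 was at 1.10 on stage 1 replicate 2, against -0.24 to -0.08.

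In 4 of the named clones every array of one stage lay on one side of 0 and every array of another stage on the opposite side, leaving aside stage 1 against stage 3, which the rule used. These differences were not tested. Each pair of stages below still holds stage 1 or stage 3, and the rule used both, so the cases are a description. The share of all clones with such a pair was not counted. The mean ratio of Myt01-004D01 differed by 2.99 between stages 1 and 4, that of Myt01-007B10 by 1.66 between the same stages, and that of Myt01-009H12, above background in neither sex at stage 1, by 0.52. In Myt01-012C08 the difference between stages 2 and 3 was 0.99. In each case the later stage was the one higher in males.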

How the results depend on the processing

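The choice of clones depended on single stage 3 arrays: the rule took 95 clones at a threshold of 0.5 and 29 at 1.0, and between 29 and 96 with 1 array of stage 1 or 3 left out, the ends being those without stage 3 replicates 3 and 4. With 1 replicate left out at a time, the calls at stage 2 and for the difference between stages 4 and 2 were 0 to 1 (1 each without stage 2 replicate 4), those at stage 4 stayed at 0, and those for the mean signal were 9 to 22. The median ratio was then 0.16 to 0.25 at stage 2 and -0.11 to 0.59 at stage 4. At stage 2, 1 clone was called with median centring and 9 with the spots kept apart; the median there was -0.018 with median centring and -0.23 with the signs turned. For the difference between stages 4 and 2, 1 clone was called with plain background subtraction, with median centring, with 16 separate arrays and with the spots kept apart. The mean signal gave 12 calls with plain subtraction and 38 with the spots kept apart or with array weights. The cause was not tested.

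Replicate numbers did not pair the arrays, since same-numbered arrays of different stages deviated together at r = -0.591 to 0.406 (median -0.0143, 24 pairs) and 4 of 16 correlated best with their own number. With the replicate number as a block, the calls were 0 at stage 2, 0 at stage 4, 0 for the difference and 16 for the mean signal. Of the ratios of single named clones, 17 values moved by more than their SD, 1063 by less, and 6 gave a new call at stage 2. The calls on mean signal held in 142 cases and were lost in 31. Few arrays, with n = 3 at stage 4, and a spread over 1 at stage 3 limit all of these tests.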
